A study of Mus musculus with 168 samples.

Results

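Glucose enters brain cells through facilitative transporters and is carried through glycolysis to pyruvate, which is either reduced to lactate or oxidized by the pyruvate dehydrogenase complex, while a small store of glucose is kept as glycogen, in brain mainly in astrocytes. When oxygen falls, cells can rely more on glycolysis and glycogen, and many genes of these steps are known targets of hypoxia-inducible factor 1, the transcription factor that builds up when oxygen is low. The 40 genes described here were chosen by function, with earlier results of these data known. Their shares set against all probe sets below are therefore descriptive. They cover glucose uptake, the hexokinases and upper glycolysis, the enzymes that set fructose 2,6-bisphosphate, lower glycolysis, lactate, pyruvate dehydrogenase with its kinases, and glycogen. Of the 40 genes, 36 had a probe set annotated to them alone, out of 18193 genes with such a probe set on the array. Gpi1, Pfkfb1 and Eno1 were not analysed here, and Gapdh, whose probe sets were either shared with other genes or array controls, was left out.

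Adult male C57BL/6 mice aged 8 to 9 weeks, with no transgene or mutation, breathed 8% oxygen for up to 3 h and were then returned to room air. The groups were 1 h of hypoxia (H1), 3 h of hypoxia (H3), and 3 h of hypoxia followed by 1, 3, 6, 12 or 24 h of reoxygenation (R1, R3, R6, R12, R24), each set against controls that the methods describe as sham-treated in the chamber with room air for 3 h and kept in the home cage for 24 h. By the methods each group was 3 mice, from each of which all regions were taken. Each group has 3 arrays in each of 7 dissected regions: cerebellum, pons and medulla, midbrain, thalamus, striatum, hippocampus and cortex. Values are linear probe set intensities, and changes are differences of log2(intensity + 16) from control, which understate the change of dim genes. A gene "rose" or "fell" where limma's adjusted p, taken over all 45037 probe sets, was under 0.05. All time points of a region share the same 3 control arrays, and except at R24 the groups differ from the controls in the time between the chamber and death, which cannot be told apart from hypoxia and reoxygenation. At H1 the time in the chamber differs as well. In tissue pieces, less RNA per cell and fewer cells of a type cannot be told apart either.

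The regions carried their own markers: all 5 measured markers of cerebellum, all 4 of pons and medulla and all 3 of striatum were highest there, as were 4 of 5 for thalamus, 4 of 5 for midbrain, 3 of 5 for hippocampus and 2 of 4 for cortex. No array stood apart, each correlating with the others of its group at 0.973 to 0.984. The ratio of 3′ to 5′ Gapdh control signal, a sign of RNA quality, ranged from 0.679 to 0.806 over the 8 groups. No library was left out. None of the 7 astrocyte, 7 neuron or 6 microglia markers passed at H3 or R1, and 1 of 6 endothelial markers fell at H3. At R3 1 microglia marker rose and 2 fell, and 1 endothelial marker rose and 3 fell. At R6 4 of the 6 microglia markers fell, with a summed intensity of 1657 to 1752 against 1877 to 1926 in controls. The part of these markers in the values at H3, R3 and R6 below was not tested.

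Ppp1r3c had the largest change of the 36 genes in the average over regions, and the most calls in single regions. In single regions the changes at R1 of Pfkfb3 in thalamus (0.73), Gys1 in striatum (0.73) and Hk2 in pons and medulla (0.72) were larger than any of Ppp1r3c, and of these only that of Hk2 passed. Ppp1r3c encodes a regulatory subunit that brings protein phosphatase 1 to glycogen, where the phosphatase activates glycogen synthase. Its intensity averaged over the 7 regions was 587, 635 and 597 for control replicates 1, 2 and 3. The corresponding averages were 757, 1095 and 922 at H3, 841, 926 and 937 at R1, and 784, 743 and 886 at R3. The replicates at H3, R1 and R3 were all above all controls. By R6 the averages were 590, 568 and 555, and at R24 they were 637, 617 and 612, and both groups overlapped the controls.

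Taken alone, 5 of the 7 regions gave a call for Ppp1r3c at H3 or R1, and striatum and cerebellum did not. In hippocampus its intensity was 623, 718 and 700 in controls, 879, 1285 and 1095 at H3, and 945, 1173 and 1101 at R1. In cortex it was 522, 696 and 473 in controls, 743, 1108 and 928 at H3, and 750, 885 and 897 at R1. In midbrain it was 739, 673 and 624 in controls and 880, 1192 and 1159 at H3. The arrays of H3 and of R1 lay above all controls in these 3 regions. In pons and medulla, the region with the highest control level, intensities were 840, 696 and 809 in controls and 1258, 1167 and 1211 at R1. In cerebellum, the region with the lowest control level, they were 367, 395 and 392 in controls, 373, 564 and 422 at H3, and 434, 499 and 497 at R1. Only there did H3 arrays overlap the controls.

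**Figure D1:**
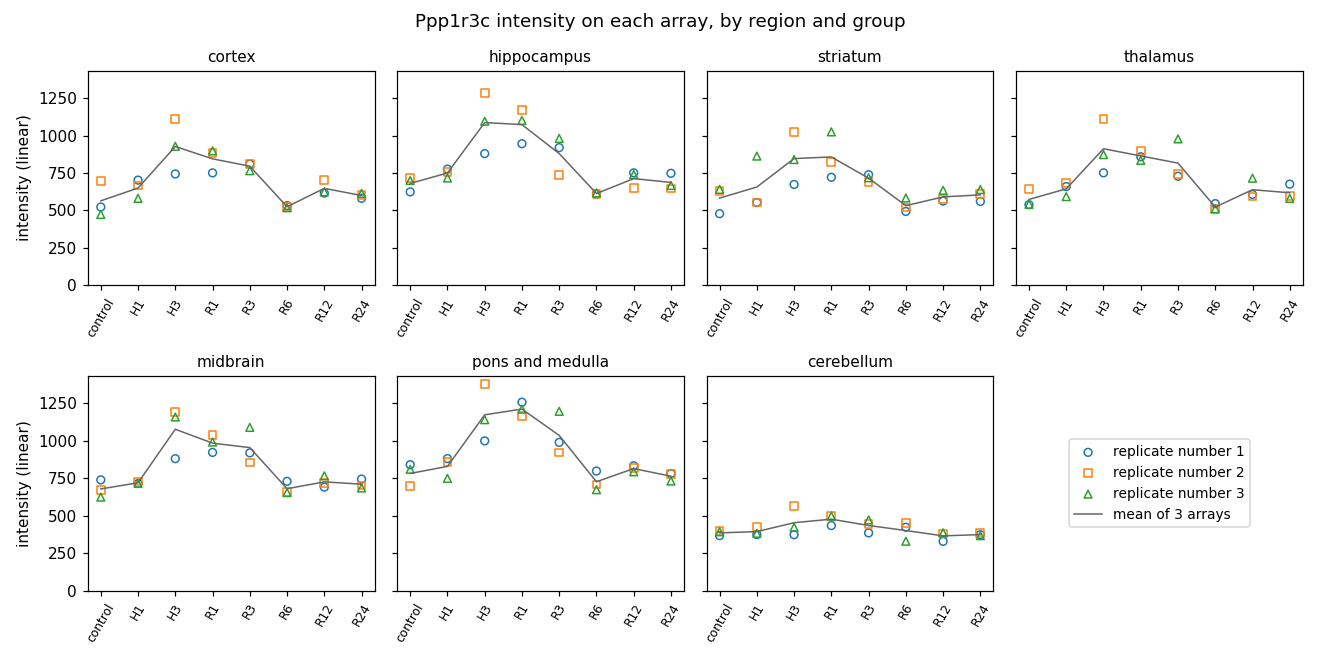
Linear intensity of Ppp1r3c on each array (y axis) by group (x axis) in 7 regions; symbols mark the replicate number and the line joins the means of 3 arrays. At H3 replicate 2 is the highest and replicate 1 the lowest array in all 7 regions, and the level is back among the controls at R6.

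Ppp1r3c rose at H3 in cortex (log2 change 0.70 ± 0.13 SE, adjusted p = 0.0282), hippocampus (0.65 ± 0.12, adjusted p = 0.0272), thalamus (0.64 ± 0.13, adjusted p = 0.0485) and midbrain (0.65 ± 0.11, adjusted p = 0.00905). It rose at R1 in hippocampus (0.64 ± 0.12, adjusted p = 0.0289), midbrain (0.53 ± 0.11, adjusted p = 0.0487) and pons and medulla (0.63 ± 0.12, adjusted p = 0.0353). In striatum the changes were 0.52 at H3 and 0.54 at R1, and in cerebellum 0.21 and 0.30, and these did not pass. At R1 all 3 arrays were above all 3 controls in 7 of 7 regions, which held for 0.124% of all probe sets. The difference of its change between regions did not pass at H3 or R1. By the second probe set of Ppp1r3c (mean intensity 330) only midbrain at H3 gave a call. The single-region calls of the brightest probe set also rest on few arrays. Without H3 replicate 2 none of the 4 calls at H3 held (adjusted p = 0.153, 0.168, 0.194 and 0.0737 in cortex, hippocampus, thalamus and midbrain), nor without H3 replicate 3 (adjusted p = 0.116, 0.124, 0.133 and 0.0685). The cortex call was also lost without control replicate 1 or 3 (adjusted p = 0.127 and 0.131), the midbrain call without control replicate 3 (adjusted p = 0.0572), and the hippocampus and thalamus calls when any single control was left out (adjusted p between 0.0709 and 0.213). At R1 the calls in midbrain and in pons and medulla were lost when any single array of the 6 was left out (adjusted p between 0.0680 and 0.193), and the hippocampus call was lost in every such case except without R1 replicate 1 (adjusted p between 0.0691 and 0.134).

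Apart from Ppp1r3c, Hk2 in pons and medulla at R1 was the only other of the 252 pairs of gene and region to pass at any time point. At H3 4 of 252 pairs rose, or 1.59%, against 0.157% of all pairs of probe set and region. At R1 4 of 252 rose, against 0.158%. None fell at any time point, against 0.153% of all pairs at H3 and 0.25% at R1. None passed at H1, R3, R6, R12 or R24, where 0.0276%, 0.00634%, 0%, 0% and 0% of all pairs rose. At an unadjusted p under 0.05, 26 pairs passed at H3, 10.3% against 7.48% of all pairs, and 46 at R1, 18.3% against 9.3%. The numbers were 5 at H1 (1.98% against 5.27%), 25 at R3 (9.92% against 6.46%), 14 at R6 (5.56% against 4.88%), 9 at R12 (3.57% against 5.76%) and 15 at R24 (5.95% against 4.94%). The rule for a regulated transcript was an adjusted p under 0.05 in the F-test over the time course and a change of at least 1.5-fold. The time point with that change also had to have an unadjusted p under 0.05. By this rule 5 of 252 pairs qualified, all of them Ppp1r3c, or 1.98% against 0.488%. Counting only separation of the arrays, 59 of 252 pairs had all R1 arrays above all controls, 23.4% against 5.98% of all pairs, and 1 had all below, 0.397% against 8.41%.

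The promoters of 5 genes that rose at R1 in the average over regions in both fits described below are shown because these genes share that call. Each is the 250 bases before the first start listed by RefSeq (GRCm38.p6), 5′ to 3′ on the strand of the gene. For Ldha and Pfkfb3 2 starts are listed, and only the first was used. The window of Ldha lies inside the span of the gene (chr7:46842274-46855627), and that of Pfkfb3 overlaps its gene (chr2:11471430-11554071). Capitals mark ACGTG or GCGTG on either strand (CACGT and CACGC when read on the strand shown), the core letters of the hypoxia-inducible factor site; CACGTG holds 2 overlapping matches.
Ppp1r3c, chr19:36736605-36736854, minus strand: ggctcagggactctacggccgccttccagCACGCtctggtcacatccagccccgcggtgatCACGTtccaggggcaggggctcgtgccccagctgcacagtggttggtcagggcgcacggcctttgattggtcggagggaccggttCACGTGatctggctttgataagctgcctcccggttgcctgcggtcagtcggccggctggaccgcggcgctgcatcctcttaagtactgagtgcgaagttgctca
Pfkfb3, chr2:11553930-11554179, minus strand: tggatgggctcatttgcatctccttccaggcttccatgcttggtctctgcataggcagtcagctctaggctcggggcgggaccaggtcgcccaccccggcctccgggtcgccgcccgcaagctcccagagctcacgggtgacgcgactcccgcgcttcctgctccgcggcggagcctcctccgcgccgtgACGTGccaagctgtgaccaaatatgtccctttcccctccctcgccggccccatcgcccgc
Ldha, chr7:46845554-46845803, plus strand: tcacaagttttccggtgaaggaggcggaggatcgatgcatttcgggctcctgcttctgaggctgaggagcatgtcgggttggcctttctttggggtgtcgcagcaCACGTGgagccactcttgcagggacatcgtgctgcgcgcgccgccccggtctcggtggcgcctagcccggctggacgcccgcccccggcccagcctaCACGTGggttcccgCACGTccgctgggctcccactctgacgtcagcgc
Slc16a1, chr3:104638414-104638663, plus strand: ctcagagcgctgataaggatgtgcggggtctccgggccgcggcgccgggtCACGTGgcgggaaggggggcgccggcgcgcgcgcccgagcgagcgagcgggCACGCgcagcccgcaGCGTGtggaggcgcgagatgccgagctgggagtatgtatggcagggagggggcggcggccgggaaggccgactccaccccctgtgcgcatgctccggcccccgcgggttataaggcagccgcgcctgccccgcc
Hk2, chr6:82774455-82774704, minus strand: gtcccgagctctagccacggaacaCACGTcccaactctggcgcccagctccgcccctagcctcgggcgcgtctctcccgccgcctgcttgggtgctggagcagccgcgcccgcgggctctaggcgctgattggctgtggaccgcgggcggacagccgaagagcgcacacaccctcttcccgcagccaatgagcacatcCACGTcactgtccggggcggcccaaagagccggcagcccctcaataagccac
The window of Ldha held 5 matches, those of Ppp1r3c and Slc16a1 4 each, that of Hk2 2 and that of Pfkfb3 1. At least 1 match was found in 29 of the 38 listed promoters of the 40 genes, 76.3%, against 38.6% of the 27025 promoters in the table. Every match holds the bases CG, and the promoters compared were not matched for CG content. Its part in the difference of these shares was not tested. Members that did not rise at any time point held such letters as well, for example Ugp2 with 6 matches, and Pkm, Tpi1 and Hk1, which rose at R1, held none.

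Averaged over the 7 regions, more of the genes passed, and all that passed at H3, R1 and R3 were higher than control. At R1 13 of 36 rose, 36.1% against 3.93% of all probe sets, and none fell, against 6.12%. At H3 4 of 36 rose, 11.1% against 2.49%, and at R3 6 of 36 rose, 16.7% against 1.59%. None fell at H3 or R3, against 3.71% and 1.61%. No gene passed at H1, where 0.584% of all probe sets rose. At R6 1 rose, against 0.435%. At R12 2 fell, against 0.306%, and at R24 1 fell, against 0.140%. The median change of the 36 at R1 was 0.08 against -0.02 for all probe sets. Of the 36, 33 were above 0 and 34 above the median of all probe sets. The 36 genes share the same controls, so their changes are not independent. Leaving out control replicate 1, 2 or 3 gave 7, 5 and 11 calls at R1. Leaving out R1 replicate 1, 2 or 3 gave 8, 11 and 6. Of the 36 probe sets, 33 lie in the brighter 22518 of the array, of which 6.91% rose and 10.1% fell at R1.

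In this fit the 7 regions of a replicate number, taken as 1 mouse although the labels do not say which samples share a mouse, are tied by 1 correlation for all probe sets, 0.0365. For several of the genes the regions of a replicate number moved together far more than that. The share of within-group variation common to the 7 regions was 0.552 for Slc2a1, 0.416 for Ppp1r3c, 0.366 for Ldha and 0.323 for Pfkfb3. It was 0.188 for Slc16a1, 0.168 for Pfkfb2, 0.150 for Pdk1, 0.146 for Tpi1, 0.143 for Hk2, 0.0978 for Pfkl and 0.0692 for Pkm. For all of these the p of the fit is too small, most so for the first 4. Among genes that passed, the share was under 0.0365 for Slc2a3, Hk1, Pfkp and Pdk3. A second fit therefore took the average of the 7 regions for each replicate number, 24 averages in all. It kept 5 of the 13 at R1 (Ppp1r3c, Pfkfb3, Slc16a1, Ldha and Hk2), where 1.65% of all probe sets rose, 1 of the 4 at H3 and 1 of the 6 at R3 (Ppp1r3c in both), against 1.2% and 0.355%. None was kept at R6, where 0.0266% of all probe sets rose, and no probe set of the array passed this fit at R12 or R24.

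**Figure D2:**
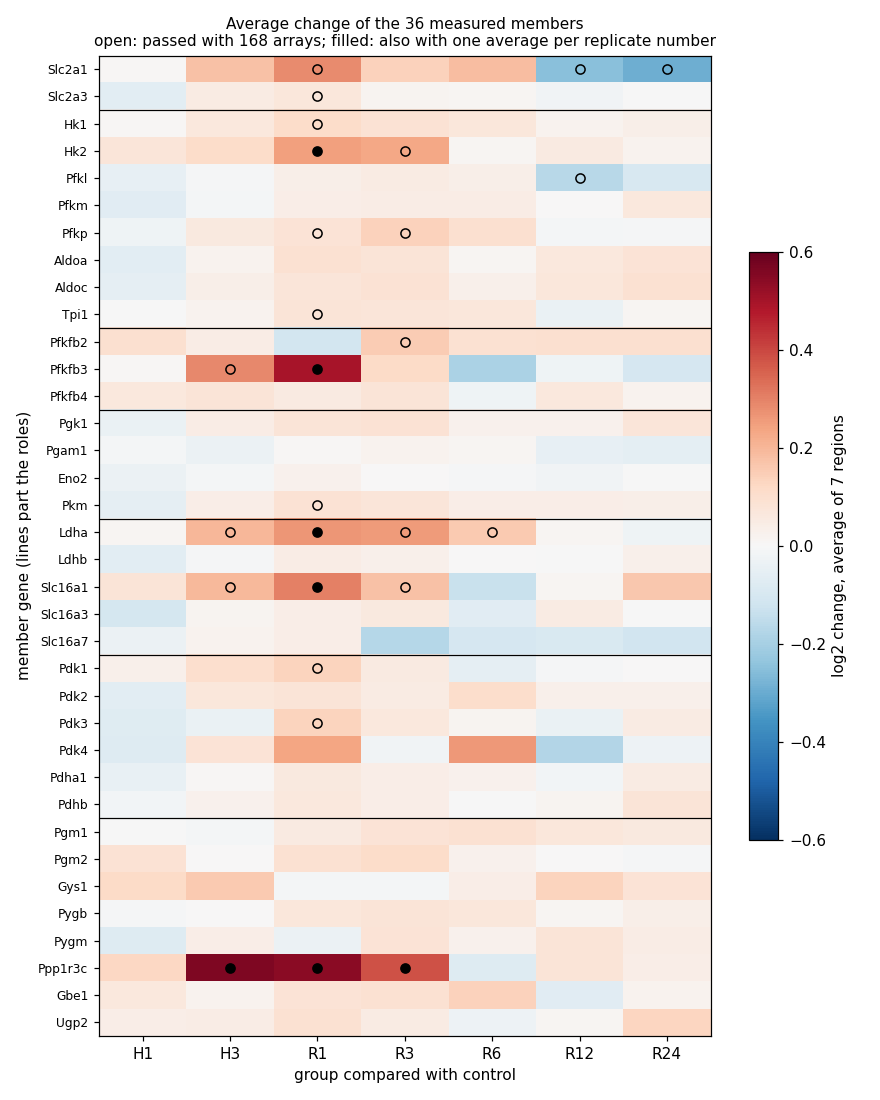
Log2 change from control averaged over 7 regions (colour) for the 36 measured genes (rows, parted by role) at 7 time points (columns); an open circle marks an adjusted p under 0.05 in the joint fit of all arrays, a filled circle a gene that passed also in the fit of 24 averages. The filled circles are Ppp1r3c at H3, R1 and R3, and Pfkfb3, Ldha, Slc16a1 and Hk2 at R1.

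For glucose uptake, Slc2a1 encodes GLUT1, the transporter of the blood-brain barrier and of glia, and Slc2a3 encodes GLUT3, the main neuronal transporter. The regional averages of Slc2a1 were 598, 523 and 744 in the 3 control replicates, 801, 636 and 833 at R1, and 487, 513 and 499 at R24. The controls thus spread widely, and the R1 replicates overlapped them while the R24 replicates lay below all. In the joint fit of all arrays Slc2a1 rose by 0.28 ± 0.06 at R1 (adjusted p = 0.000479) and fell by 0.25 at R12 (SE 0.06, adjusted p = 0.0171) and by 0.29 at R24 (SE 0.06, adjusted p = 0.00844). The change was above 0 in 7 of 7 regions at R1 and below 0 in 7 of 7 at R12 and R24. Control replicate 3 was the highest control in 6 of 7 regions. Without it the changes at R12 and R24 were -0.12 and -0.17 (adjusted p = 0.648 and 0.442). Without control replicate 2 the rise at R1 was 0.17 (adjusted p = 0.133). The fall was also lost without R12 replicate 3 (adjusted p = 0.161) at R12 and without R24 replicate 1 (adjusted p = 0.139) at R24. In the fit of 24 averages the adjusted p was 0.18 at R1, 0.517 at R12 and 0.828 at R24. The other 2 probe sets of Slc2a1 rose by 0.25 and 0.27 at R1, and were at -0.23 and -0.20 at R24, where they did not pass. They also rose by 0.21 and 0.19 at H3 (adjusted p = 0.0169 and 0.0315) and by 0.23 and 0.23 at R3 (adjusted p = 0.0106 and 0.0118), where the brightest was at 0.17 and 0.14 and did not pass. The summed intensity of the 6 endothelial markers was 843 to 918 in controls, 816 to 895 at R1, 1014 to 1023 at R12 and 967 to 979 at R24. Their part in the change of Slc2a1 was not tested. Slc2a3 rose by 0.07 ± 0.02 at R1 (adjusted p = 0.0474), which was lost when any single control replicate was left out and without R1 replicate 1 or 3 (adjusted p between 0.0516 and 0.222).

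Among hexokinases and upper glycolytic enzymes, 4 of 8 rose at R1 (Hk2, Hk1, Pfkp and Tpi1). Hk2 encodes an inducible hexokinase that catalyses the first step of glycolysis. Its regional averages were 75.8, 74.9 and 73.8 in controls and 87.1, 81.1 and 96.1 at R1, all above the controls. It rose by 0.25 ± 0.06 at R1 (adjusted p = 0.00154; 0.0482 in the fit of 24 averages) and by 0.23 ± 0.06 at R3 (adjusted p = 0.00873; 0.157 with 24 averages). The first was lost without R1 replicate 3 (adjusted p = 0.0709) and the other without R3 replicate 3 (adjusted p = 0.0840).

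By region, the change of Hk2 at R1 ranged from -0.11 in cerebellum to 0.72 in pons and medulla, and the difference between regions did not pass. In pons and medulla its intensity was 49.6, 49.0 and 53.2 in controls and 85.5, 96.6 and 99.2 at R1, without overlap, and it rose by 0.72 ± 0.13 (adjusted p = 0.0233). That call was lost when any single array of the 6 was left out (adjusted p between 0.0512 and 0.133). In thalamus it was 53.1, 50.4 and 48.6 in controls and 82.1, 59.8 and 78.4 at R1. In cerebellum, where its control level was the highest, it was 175, 164 and 173 in controls, 149, 131 and 130 at H3, 155, 152 and 165 at R1, and 152, 151 and 143 at R3. The cerebellar arrays at H3 and R3 lay below all controls, and the log2 changes there were -0.29, -0.11 and -0.18, which did not pass. In cortex the changes were -0.24 at H3 and -0.10 at R1, with overlapping arrays. The test of a difference between regions gave an unadjusted p of 0.00141 at H3 and 0.000574 at R1, adjusted 0.50 and 0.181. No gene of the 36 passed that test after adjustment at H3 or R1, where 0.0222% and 0.135% of all probe sets did, and 1 and 2 of them were under 0.05 unadjusted, against 4.69% and 6.62%.

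**Figure D3:**
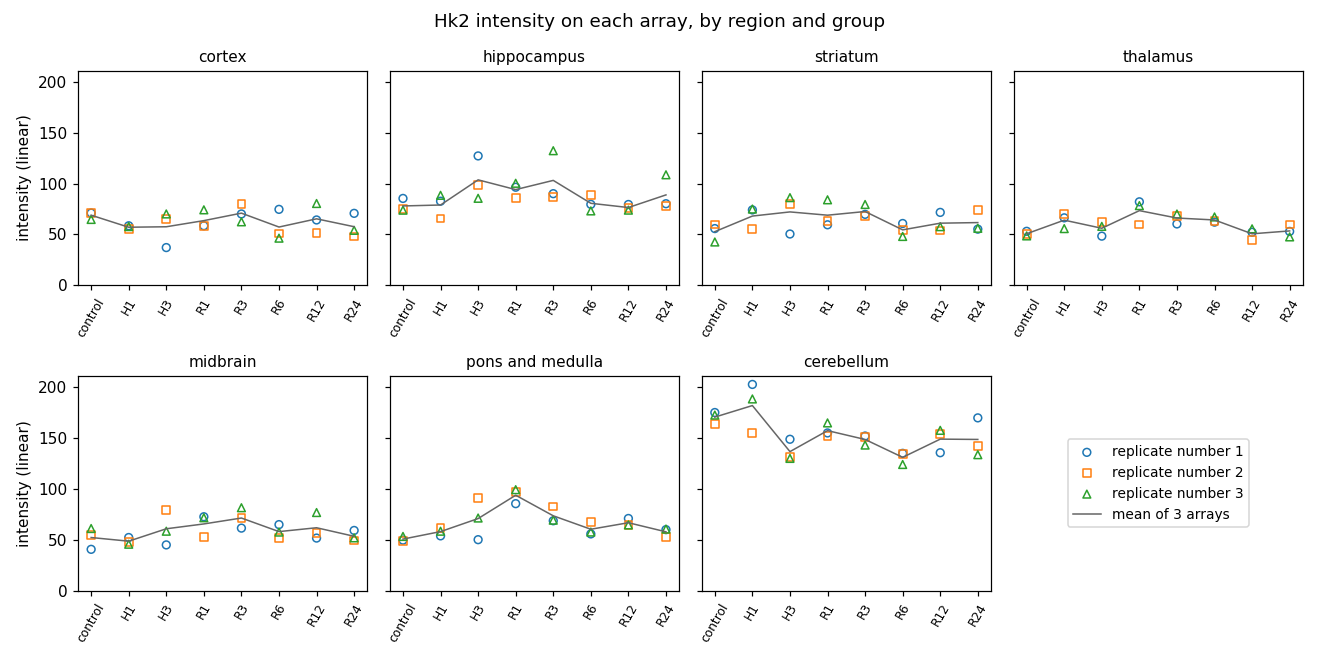
Linear intensity of Hk2 on each array (y axis) by group (x axis) in 7 regions; symbols mark the replicate number and the line joins the means of 3 arrays. The arrays of pons and medulla at R1 lie above 85 while its controls lie below 54, and cerebellum is the brightest region in every group.

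Hk1, the main hexokinase of brain, rose by 0.11 ± 0.03 at R1 (adjusted p = 0.0114), from a median of 1222 over the 21 control arrays (934 to 1525) to 1281 (1116 to 1723). Pfkp, the platelet-type phosphofructokinase, which catalyses the committed step of glycolysis, rose by 0.08 ± 0.03 at R1 (adjusted p = 0.0323) and by 0.14 ± 0.03 at R3 (adjusted p = 0.000255). Its regional averages were 790, 777 and 806 in controls and 887, 874 and 848 at R3, without overlap. The triose phosphate isomerase gene Tpi1 rose by 0.08 ± 0.02 at R1 (adjusted p = 0.0341). Pfkl, the liver-type phosphofructokinase, had regional averages of 739, 792 and 764 in controls and 664, 693 and 704 at R12, without overlap, and fell by 0.16 (SE 0.04, adjusted p = 0.0269). None of these passed with 24 averages. Pfkp at R3 held whichever single replicate of the controls or of R3 was left out. It was lost when replicate number 2 was left out of all groups. Hk1 was lost without control replicate 1 or 2 or R1 replicate 2 (adjusted p between 0.0595 and 0.0916), and Pfkp at R1 without these controls or R1 replicate 1 or 3 (adjusted p between 0.0737 and 0.205). Tpi1 was lost without control replicate 1 or 2 or R1 replicate 3 (adjusted p between 0.163 and 0.283), and Pfkl without control replicate 2 or 3 or R12 replicate 1 or 2 (adjusted p between 0.0699 and 0.216). Pfkm, Aldoa and Aldoc, a muscle-type phosphofructokinase and 2 aldolases, did not pass at any time point. Less bright probe sets of these genes differed in part: that of Aldoc (mean intensity 195 against 3766) rose by 0.19 at R1 and 0.18 at R3 (adjusted p = 0.000243 and 0.00291), and a dim one of Pfkl (mean intensity 49.9 against 750) rose by 0.41 at H3 (adjusted p = 7.38e-08), where the brightest was at -0.01. A dim probe set of Pfkp rose by 0.21 at H3 and 0.19 at R1 (adjusted p = 0.00355 and 0.00741) but did not pass at R3 (0.12, adjusted p = 0.289). The second brightest of Pfkp (mean intensity 377) was at 0.005 at R1 and 0.16 at R3 and did not pass (adjusted p = 0.986 and 0.425). That of Hk1 (mean intensity 713) was at 0.06 at R1 and did not pass (adjusted p = 0.517). Both other probe sets of Tpi1 rose by 0.10 at R1 (adjusted p = 0.0156 and 0.012), 1 of them also by 0.12 at R3 (adjusted p = 0.0116).

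Of the enzymes that make or remove fructose 2,6-bisphosphate, the activator of phosphofructokinase, Pfkfb3 changed most. Its regional averages were 140, 173 and 141 in controls, 165, 219 and 190 at H3, and 202, 206 and 250 at R1. The R1 replicates lay above all controls, the H3 replicates did not. It rose by 0.29 ± 0.07 at H3 (adjusted p = 0.00338; 0.187 with 24 averages) and by 0.49 ± 0.07 at R1 (adjusted p = 4.16e-08; 0.00826 with 24 averages). At R1 it was above control in 7 of 7 regions, from 0.24 in cortex to 0.73 in thalamus. In thalamus intensities were 98.3, 138 and 100 in controls and 156, 187 and 249 at R1, and in pons and medulla 236, 226 and 242 and then 311, 341 and 408, without overlap in both. The H3 rise was lost without control replicate 1 or 3 (adjusted p = 0.0799 and 0.0504) or H3 replicate 2 (adjusted p = 0.224). A second, dimmer probe set of Pfkfb3 (mean intensity 44.6 against 163) gave 0.07 at H3 and 0.03 at R1 and did not pass. Pfkfb2, a related bifunctional enzyme, rose by 0.15 ± 0.05 at R3 (adjusted p = 0.0379), with regional averages of 155, 146 and 144 in controls and 166, 173 and 160 at R3. It was lost without control replicate 2 or 3 or R3 replicate 1 or 2 (adjusted p between 0.0869 and 0.213), and it was at -0.11 at R1. Pfkfb4 did not pass at any time point.

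In lower glycolysis 1 of 4 genes passed. Pkm, pyruvate kinase, rose by 0.09 ± 0.03 at R1 (adjusted p = 0.0207), with regional averages of 2261, 2271 and 2379 in controls and 2438, 2365 and 2533 at R1, which overlap. It was lost without control replicate 1 or 2 or R1 replicate 1 or 3 (adjusted p between 0.0565 and 0.222). Pgk1, Pgam1 and Eno2, all bright, were within -0.06 to 0.09 at every time point and did not pass.

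Ldha, the lactate dehydrogenase subunit that favours lactate formation, stayed higher for longest in the joint fit of all arrays. Its regional averages were 966, 986 and 1022 in controls, 1103, 1134 and 1150 at H3, 1167, 1131 and 1258 at R1, 1096, 1160 and 1258 at R3, and 1005, 1114 and 1190 at R6. The H3, R1 and R3 replicates were all above the controls, and those of R6 overlapped them. It rose by 0.20 ± 0.04 at H3 (adjusted p = 0.000273), 0.26 ± 0.04 at R1 (adjusted p = 4.02e-07), 0.26 ± 0.04 at R3 (adjusted p = 4.24e-06) and 0.16 ± 0.04 at R6 (adjusted p = 0.0439), above 0 in 7 of 7 regions each time. With 24 averages the adjusted p was 0.133, 0.0233, 0.0842 and 0.626. The calls at H3, R1 and R3 held whichever single replicate of the controls or of that group was left out. That at H3 was lost when replicate number 2 was left out of all groups. The call at R6 was lost without control replicate 1 or 2 or R6 replicate 2 or 3 (adjusted p between 0.170 and 0.612). In striatum intensities were 1130, 1120 and 1171 in controls and 1397, 1403 and 1457 at R1, and in pons and medulla 703, 616 and 749 and then 944, 855 and 921, without overlap in both. Ldhb, the subunit that favours pyruvate, was within -0.06 to 0.04 and did not pass.

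Slc16a1 encodes MCT1, the lactate and ketone transporter of endothelium and glia. Its regional averages were 395, 384 and 386 in controls, 414, 474 and 461 at H3, 448, 497 and 488 at R1, and 414, 451 and 454 at R3, each above all controls. It rose by 0.20 ± 0.05 at H3 (adjusted p = 0.00231), 0.30 ± 0.05 at R1 (adjusted p = 3.36e-07; 0.00558 with 24 averages) and 0.18 ± 0.05 at R3 (adjusted p = 0.0144). With 24 averages H3 and R3 did not pass (adjusted p = 0.104 and 0.235). The R1 rise held whichever single replicate was left out. That at H3 was lost without H3 replicate 2 (adjusted p = 0.0998), and that at R3 without control replicate 3 or R3 replicate 2 or 3 (adjusted p between 0.0573 and 0.122). In striatum intensities were 243, 244 and 272 in controls and 360, 364 and 324 at R1. At R6 the averages were 326, 377 and 359, below all controls, and the change of -0.14 did not pass. The other monocarboxylate transporters, Slc16a3 and Slc16a7, were dim (mean intensities 40.1 and 23.1) and did not pass.

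**Figure D4:**
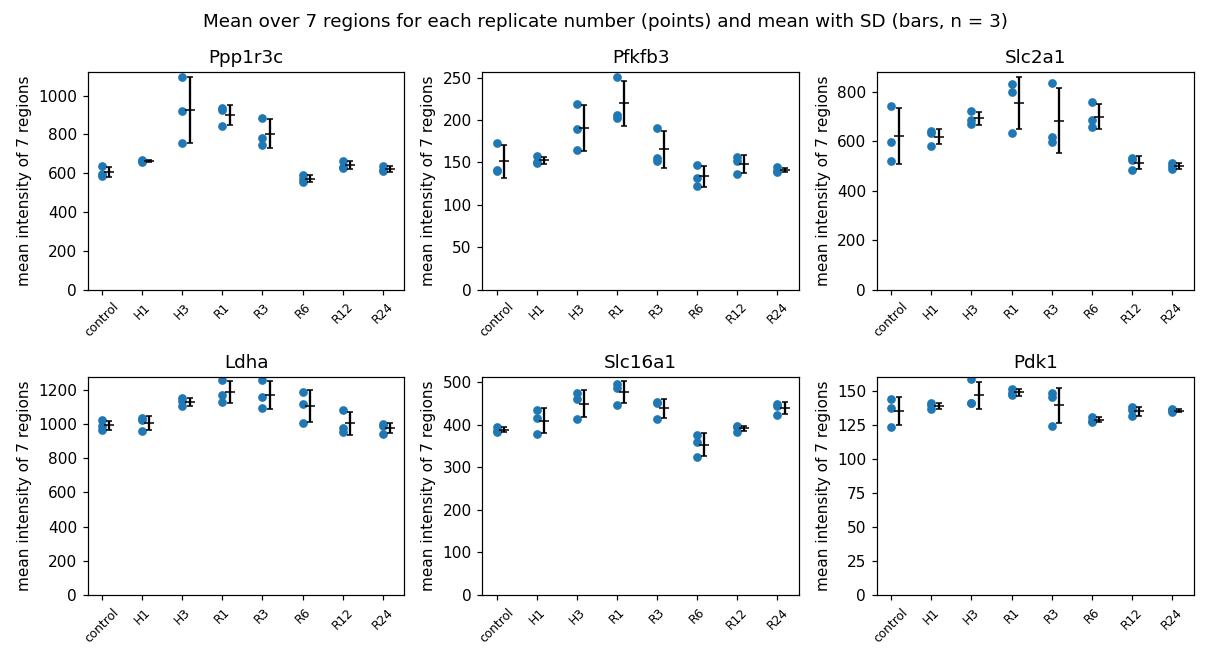
Mean intensity of the 7 regions (y axes, from 0) by group (x axes) for 6 genes; points are the 3 replicate numbers, the offset bars their mean and SD. At R1 the 3 points of Ppp1r3c, Pfkfb3, Ldha, Slc16a1 and Pdk1 lie above all control points, those of Slc2a1 do not, and at R24 all points of Slc2a1 lie below its controls.

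Of the pyruvate dehydrogenase kinases, which switch off the entry of pyruvate into the mitochondrial cycle, 2 of 4 rose at R1. Pdk1 had regional averages of 145, 124 and 138 in controls and 147, 149 and 152 at R1, and rose by 0.13 ± 0.05 (adjusted p = 0.0497). Its largest change was in cerebellum, 0.43 ± 0.12 at R1 and 0.39 ± 0.12 at R3, with arrays above all controls but no call in that region. Without control replicate 2 the average rise at R1 was 0.07 (adjusted p = 0.548), and the call was lost when any single R1 replicate was left out (adjusted p between 0.0862 and 0.169). Without cerebellum the average rise was 0.08. These values are for the brightest probe set of Pdk1 (mean intensity 139). A less bright probe set of Pdk1 (mean intensity 105) rose by 0.25 at R1 (adjusted p = 0.000951). Its remaining probe sets (mean intensities 102 and 19.7) were at 0.16 and 0.10 at R1 and did not pass (adjusted p = 0.125 and 0.640). Pdk3 had averages of 121, 116 and 122 in controls and 133, 130 and 135 at R1, without overlap, and rose by 0.13 ± 0.05 (adjusted p = 0.0477). It was lost when any single replicate was left out (adjusted p between 0.0543 and 0.261). Neither passed with 24 averages. Pdk2 and Pdk4 did not pass, and Pdk4, at a mean intensity of 53.7, was 0.24 at R1 and 0.26 at R6. The 2 genes of the dehydrogenase itself, Pdha1 and Pdhb, were within -0.04 to 0.08.

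Of the 8 glycogen genes, Ppp1r3c alone passed by its brightest probe set. Its average rise was 0.56 ± 0.05 at H3, 0.54 ± 0.05 at R1 and 0.38 ± 0.05 at R3 (adjusted p = 5.75e-16, 3.36e-15 and 3.64e-08; 0.000562, 0.000640 and 0.0427 with 24 averages). All 3 held whichever single replicate was left out, with changes from 0.43 to 0.70 at H3. Its second probe set gave 0.49, 0.45 and 0.39. The synthase Gys1, the phosphorylases Pygb and Pygm, the branching enzyme Gbe1, the phosphoglucomutases Pgm1 and Pgm2 and the UDP-glucose maker Ugp2 lay between -0.08 and 0.16 at all time points and did not pass. Of the 4 other probe sets of Ugp2, 1 rose by 0.10 at R1 (adjusted p = 0.0445). Of these, Gbe1, Pgm2 and Gys1 were dim, at mean intensities of 42.2, 53.2 and 74.3. The summed intensity of the 7 astrocyte markers was 9465 to 9568 in controls, 9365 to 9724 at H3 and 9358 to 9919 at R1. At R3, 1 of these 7 markers rose, and its part in the change of Ppp1r3c was not tested.

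Other genes of the same pathways were counted from a list of 57, of which 53 were measured. At H3 4 rose and 1 fell, and at R1 4 rose and 2 fell, so their shares were 7.55% and 7.55% for rises against 2.49% and 3.93% of all probe sets. The only one to pass in a single region was Ppp1r3g, another glycogen-targeting subunit, in cortex at H3 (0.63 ± 0.13, adjusted p = 0.0457). In the average it was at 0.30 at H3, 0.32 at R1, -0.47 at R12 and -0.36 at R24, and all 4 passed in the joint fit of all arrays and none with 24 averages (adjusted p between 0.155 and 0.807). Chosen after their values were seen, Slc37a4, the transporter of glucose 6-phosphate into the endoplasmic reticulum, was 0.33 ± 0.05 at R1 and 0.29 ± 0.05 at R6, Ppp1r3d, also a glycogen-targeting subunit, was 0.30 ± 0.08 at H3, and Pdhx, a component of the pyruvate dehydrogenase complex, fell by 0.18 at H3. All 3 passed in the joint fit. With 24 averages the adjusted p of Slc37a4 was 0.00108 at R1, 0.0266 at R3, where its change was 0.27, and 0.0888 at R6. That of Ppp1r3d at H3 was 0.0205 and that of Pdhx at H3 was 0.0132.

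The control level differed between regions for 31 of 36 genes, 86.1% against 48.5% of all probe sets, and spanned at least 2-fold between regions for 9, 25.0% against 16.7%. Of the 36 probe sets, 33 lie in the brighter 22518 of the array. The shares among those 22518 alone were not counted here, and the part of brightness was not tested. Pygm, the muscle-type glycogen phosphorylase that brain astrocytes also express, spanned 4.98-fold. Its control intensity was 309, 393 and 485 in pons and medulla, 308, 292 and 327 in midbrain, 217, 201 and 209 in thalamus, and 208, 194 and 206 in cerebellum. It was 89.8, 127 and 114 in cortex, 97.9, 98.3 and 84.2 in hippocampus, and 55.7, 74.5 and 66.7 in striatum. The first 4 of these regions thus did not overlap with cortex, hippocampus and striatum, while pons and medulla overlapped midbrain, and thalamus overlapped cerebellum.

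Hk2 spanned 2.80-fold, with cerebellum at 171 ± 5.77 (SD, n = 3) and all other regions between 50.6 and 78.0 in mean intensity. Pdk2, a dehydrogenase kinase, spanned 2.52-fold, with cerebellum at 593 ± 81.0 and striatum at 225 ± 12.0. Slc16a1 spanned 2.47-fold, highest in pons and medulla (589 ± 74.1) and lowest in cortex (231 ± 45.8), where it overlapped striatum (253 ± 16.4). Pdk1 and Ldha were both highest in cortex and spanned 2.27-fold and 2.02-fold, with the lowest levels in cerebellum for Pdk1 and in pons and medulla for Ldha. Pfkl spanned 2.31-fold and was highest in hippocampus, Slc16a7 2.38-fold with cortex highest, and Gbe1 2.02-fold with thalamus highest. The control level of Ppp1r3c, at 1.99-fold, lay just under the 2-fold mark. Gys1, Pdk4, Slc16a3, Pgm2 and Aldoa did not differ past the threshold.

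**Figure D5:**
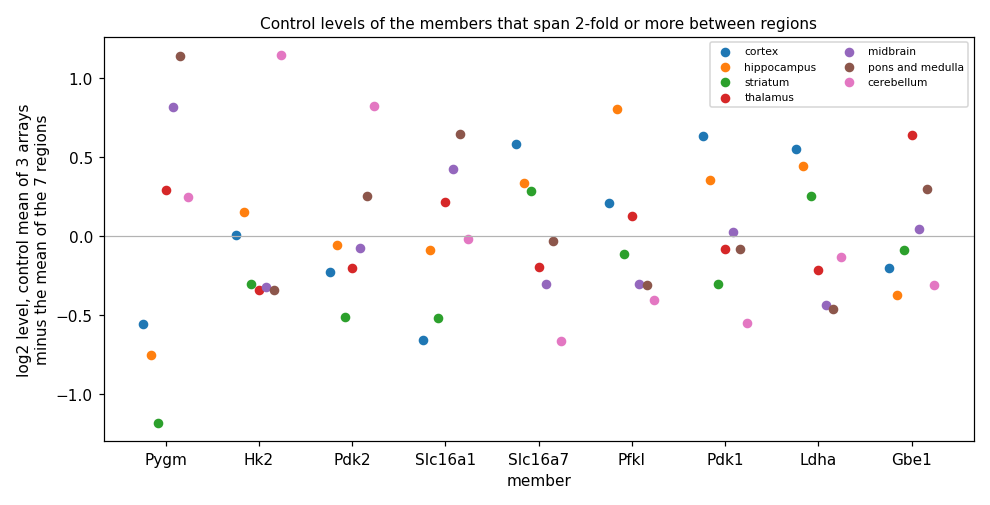
Control level of the 9 genes with a span of at least 2-fold (x axis), as log2 mean of 3 arrays less the mean of the 7 regions (y axis); each colour is a region. Pygm is highest in pons and medulla and lowest in striatum, and Hk2 and Pdk2 are highest in cerebellum.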

How the data were processed

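Total RNA (Trizol) of each region was labelled as biotin cRNA and hybridized to Affymetrix mouse whole-genome expression arrays. The authors deposited linear intensity values per probe set; the submitters' processing notes name GCOS 1.3. The methods describe GCRMA, quantile normalization and division by sham, which these values do not show: the trimmed mean is the same on every array while quantiles differ. How the table was summarised is otherwise not given in the sources used here.

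Values were analysed as log2(intensity + 16) with limma 3.58.1 in R 4.3.3, after leaving out 64 control probe sets of 45101. Each gene is represented by its brightest own probe set. Each region was fitted alone (24 arrays, 7 contrasts against control). The average over regions came from 1 joint fit of all arrays with a random block for time point and replicate number, and again from 24 averages. Adjusted p-values are Benjamini-Hochberg over 45037 probe sets. The methods give 3 mice a group, with all regions from each, but the labels do not say which samples share a mouse, so the replicate number was taken as the mouse. The 3 arrays a group limit the precision. Scripts were tested on simulated data. The members and lists were chosen with earlier results of these data known. Genes are named with values if called at any time point, ranked by calls and size. Alternatives covered the added constant, normalization, dim probe sets, variance moderation, the probe set, the methods' t-test, the block and leaving out replicates or regions.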

Additional observations from a re-analysis of the deposited data

How the results depend on the processing

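No result changed direction under any setting. Counts of genes and regions at R1 (4) became 2 with a constant of 1, with quantile normalization and with median centring, 11 among probe sets brighter than the median, and 7 with trended and robust moderation; median centring also gave 1 at H3 (4) and 0 in the average at R6 (1). Using the second probe set, which 20 genes have, gave 1 region call at H3, 0 at R1, 1 over the time course, 2, 5 and 0 in the average at H3, R1 and R24, and 15 genes with different control levels, 3 of them over at least 2-fold. For the same 20 genes the brightest probe set gave 4, 3, 5, 3, 9, 1, 18 and 3. The methods' t-test gave 0 calls at H3 and R1 after adjustment. Without adjustment it gave 14, 17, 38, 28, 14, 9 and 11 of 252 from H1 to R24, while 4.42%, 6.28%, 8%, 5.53%, 4.76%, 4.86% and 4.33% of all pairs passed. Without the random block the average at R6 gave 3. With the regions averaged for each replicate number the counts were 1, 5, 1, 0, 0 and 0 from H3 to R24. Part of the second-probe-set loss is the smaller number of genes; otherwise the cause was not tested.

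Leaving out 1 replicate number gave 0 to 1 region calls at H3, 0 at R1 and 0 over the time course. In the average it gave 2 to 5 at H3, 5 to 11 at R1, 2 to 8 at R3, 0 to 4 at R6, 0 to 2 at R12 and 0 to 1 at R24. Control levels then differed for 26 to 30 genes, 8 to 12 of them over at least 2-fold. Leaving out single replicates of a group or single regions was chosen after seeing the data. The replicate numbers did not meet the bar for pairing controls with H3 or R1, which by the methods are different mice: over 42 pairs the correlation of deviations was -0.06 to 0.19 (median 0.08), with 13 over 0.1. Over all time points, 110 of 147 arrays correlated best with the control of their own number, out of 3 controls. In 26 of 49 sets of region and time point all 3 arrays did so. This is a hint from the data and not the design. A replicate block raised the calls over all probe sets in all 7 regions at H3 and R1, in cortex at R1 from 142 to 278. With the replicate number as a block, 3 calls at H3, 6 at R1 and 6 over the time course were found; Ppp1r3c was lost in thalamus at H3 (adjusted p = 0.0549) and midbrain at R1 (adjusted p = 0.0558). With 3 arrays a group, and Hk2, Gbe1, Pdk4, Slc16a3 and Slc16a7 dim, small changes were not detectable in single regions.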
